A study of Rattus norvegicus with 24 samples.

Results

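Midbrain RNA was measured on 24 Affymetrix Rat Genome 230 2.0 arrays, and 12 of these are described here. They are the 6 arrays titled OVX-1 to OVX-6 and the 6 arrays titled Intact-1 to Intact-6, chosen by title because they went through 1 normalization run together. The question is whether the difference between paced mated and chamber-exposed rats depended on the ovaries. The OVX arrays are labelled as Long-Evans rats without ovaries. Per the study's methods these rats were tested 10 days after surgery and had been primed with 10 μg of estradiol benzoate 44 h before the test. The Intact-named arrays are labelled proestrous, that is, from ovary-bearing rats at the receptive stage of the cycle, which by the methods was read from vaginal smears and needed no hormone injection. In both gland groups 3 arrays are labelled paced mated (numbers 1, 3 and 5 of each title) and 3 chamber-exposed (numbers 2, 4 and 6). By the methods, intact paced mated rats engaged in 1 ejaculatory sequence with a male that they could approach and leave. OVX rats were tested in the same task. Chamber-exposed rats, called yoked controls, met only a clean, empty mating chamber. The paper reports less lordosis and solicitation, and more defensive aggression, in OVX than in intact rats. The mating itself thus also differed with gland group and cannot be told apart from it. The methods describe 6 intact rats, while 12 arrays of the series are labelled proestrous, so it is not known whether each Intact-named array is a separate rat. P-values therefore measure the spread between arrays.

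In the rat, receptivity follows estradiol and progesterone from the ovary around ovulation, and estradiol given to an ovariectomized female restores part of it. Progestogens are also made in brain from cholesterol, by enzymes that glia and neurons express. A gene whose response to mating needs the ovarian cycle would show a difference in intact rats that is small, absent or turned round after ovariectomy. Removal of the ovaries and estradiol priming went together here and cannot be told apart. The same holds for gland group and the array set named in the titles, but each mating difference lies within 1 set.

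All values are log2 signals as deposited, on which a step of 1 is a 2-fold change. The mating difference is paced minus chamber-exposed. The interaction is the mating difference in Intact-named arrays minus that in OVX arrays, so a positive value means that the mating difference was higher in Intact-named arrays. It was tested with limma on 4 groups of 3 arrays over 25392 probe sets, with Benjamini-Hochberg adjustment and a threshold of 0.05. Of these, 17849 carry 1 gene symbol, 373 several and 7170 none, and 12605 genes are represented by their brightest probe set. In bulk tissue, fewer cells of a type and less RNA per cell cannot be told apart.

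Several arrays go against their labels or stand apart. Xist, the RNA that silences an X chromosome in female cells, gave 2.94 on Intact-3 and 3.07 on Intact-5 (probe set 1386785_a_at), against 9.27 to 10.41 on the other 10 arrays. The other 3 probe sets of Xist were low on the same arrays. Eif2s3y, a Y-linked gene of a translation initiation factor, gave 7.79 on Intact-3 and 8.13 on Intact-5, against 2.44 to 2.63 on the other 10. The arrays labelled paced mated in the Intact-named set thus hold 2 arrays with low Xist and high Eif2s3y and 1 without. No chamber-exposed array shows this, which is the pattern of male cells, while the paper describes female rats only. The mating label in the Intact-named set goes in part with this pattern, and they cannot be fully told apart. Both genes were singled out after their values were seen. Results below are for all 12 arrays, and values without these 2 arrays are given beside many of them. Fits without them hold only 1 paced Intact-named array, Intact-1, which is assumed to vary like the arrays of the other groups. Fits without Intact-1 hold only Intact-3 and Intact-5 as paced Intact-named arrays. In those fits the mating label of the Intact-named set and the low Xist pattern cannot be told apart at all. OVX-1 stood apart in genes of cerebellar neurons, with a list median of 9.09 against at most 7.85 elsewhere. Markers of cortex and hippocampus were high on all 12 arrays, with list medians of 9.49 to 10.26. Th, tyrosine hydroxylase of dopamine neurons, gave 8.60 on OVX-4 and 7.22 on Intact-1, and 5.69 to 6.25 on the other 10 arrays. The 3′ minus 5′ signal of beta-actin, which grows as RNA breaks down, was 1.84 to 2.24 in paced and 1.50 to 2.26 in chamber-exposed OVX rats, and 1.84 to 3.40 in paced and 1.85 to 2.84 in chamber-exposed Intact-named arrays. The labelled tissue is midbrain, and the part of these makeups in the results was tested only as stated below.

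**Figure D1:**
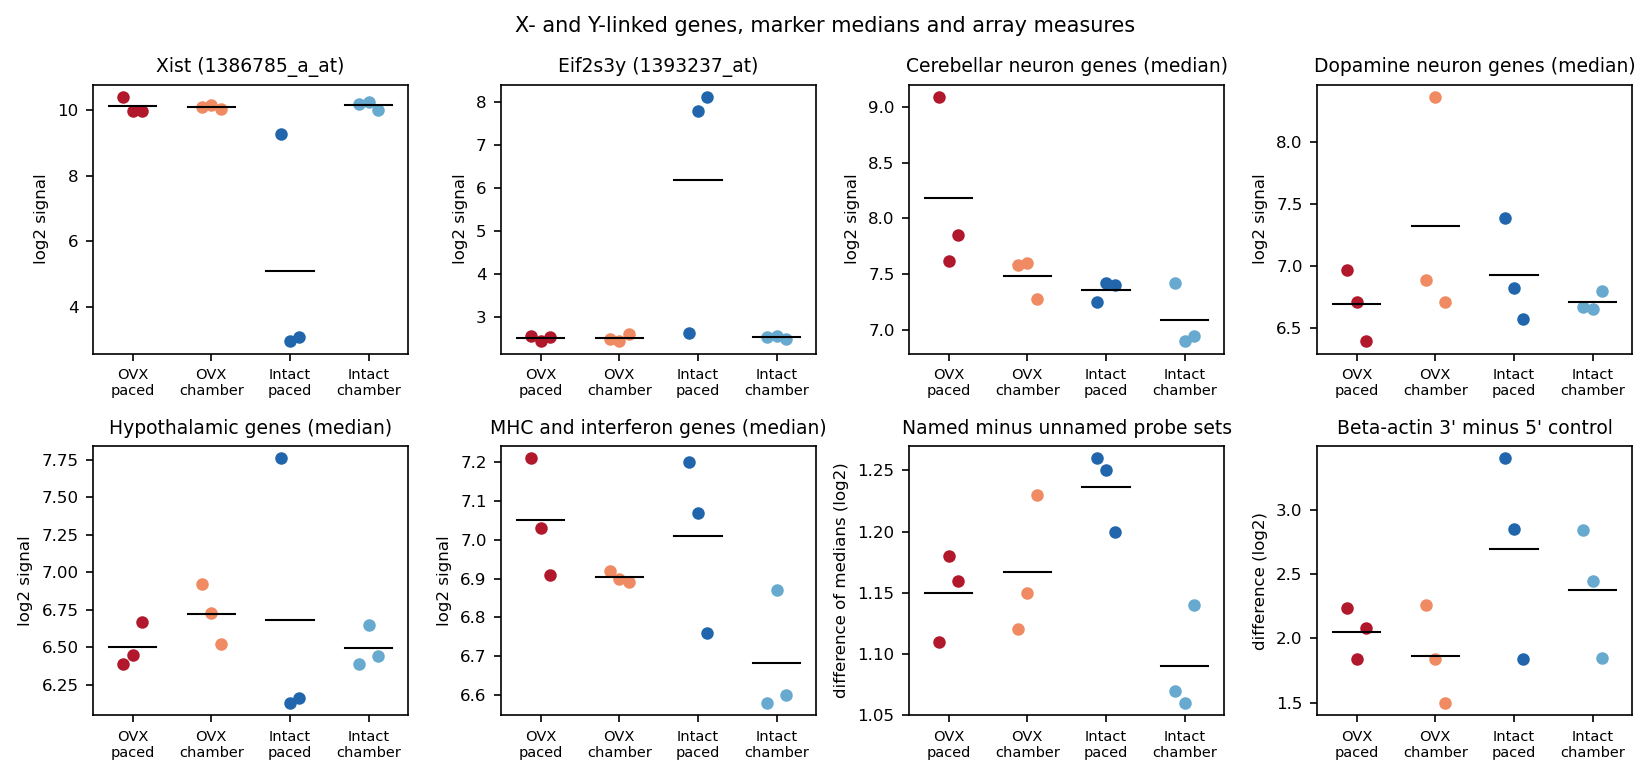
Each point is 1 array, on an axis of log2 signal (the last 2 panels: a log2 difference within the array), with the arrays grouped as OVX paced, OVX chamber-exposed, Intact-named paced and Intact-named chamber-exposed, and a bar at the mean of 3 arrays. Xist is near 3 and Eif2s3y near 8 on 2 of the 3 paced Intact-named arrays, and OVX-1, OVX-4 and Intact-1 stand out for cerebellar, dopamine neuron and hypothalamic genes.

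The interaction passed the test at 2 of 25392 probe sets (0.00788%), and neither carries a gene symbol in the annotation. At both of them the chamber-exposed Intact-named arrays were high, the paced Intact-named arrays were at the level of the OVX rats, and the mating difference after ovariectomy was close to 0. Without Intact-3 and Intact-5 the test passed at 4 probe sets, which were 1394620_at, another without a symbol, Avp and Prdm16. Without Intact-1 it passed at 9, all negative, among them the 4 probe sets of Xist. Probe set 1394620_at gave 6.11, 5.82 and 6.0 in paced OVX rats and 5.91, 5.82 and 5.97 in chamber-exposed OVX rats. It gave 5.82, 6.0 and 5.96 in paced and 8.11, 8.09 and 8.23 in chamber-exposed Intact-named arrays. The 9 other arrays thus lay within 0.29 of each other and the 3 chamber-exposed Intact-named arrays lay clearly above them. The mating difference was 0.07 in OVX and −2.22 in Intact-named arrays, a 4.66-fold lower signal after paced mating. An exact permutation p is also given for some probe sets. Its test assumes no mating difference in either gland group, so it is not a test of the interaction alone. The interaction was −2.29 (standard error 0.131, adjusted p = 4.26e-05 from limma), with an exact permutation p of 0.025, two-sided, where the smallest possible is 0.005. Without Intact-3 and Intact-5 it was −2.40 (adjusted p = 0.00197 from limma).

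The second, 1396858_at, gave 6.01, 6.27 and 6.26 in paced OVX rats and 6.20, 6.10 and 5.80 in chamber-exposed OVX rats. Its signal was 5.77, 5.99 and 5.65 in paced and 7.24, 7.45 and 7.16 in chamber-exposed Intact-named arrays. Again the paced and chamber-exposed arrays did not overlap in the Intact-named set and overlapped in OVX rats. The mating difference was 0.14 in OVX and −1.48 in Intact-named arrays, and the interaction was −1.62 (standard error 0.187, adjusted p = 0.0335 from limma). This call was lost without Intact-3 and Intact-5 (−1.65, adjusted p = 0.106 from limma) and in several other settings, while the value stayed between −1.73 and −1.45. No sequence of either probe set was among the files used here.

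Mating differences within each gland group show where the contrast comes from. After ovariectomy 0 probe sets passed the test (0%), with 411 at an unadjusted p under 0.05 by limma (167 higher and 244 lower in paced rats). In Intact-named arrays 7 passed (0.0276%), with 2769 at an unadjusted p under 0.05. These counts were 81 and 4863 without Intact-3 and Intact-5. The median size of the mating difference was 0.0663 in OVX and 0.104 in Intact-named arrays. Beside both probe sets above, the 7 hold 3 with a gene symbol, of which 2 were lower and 1 higher in arrays labelled paced mated. None of the 3 is the brightest probe set of its gene, and 0 of the 12605 genes passed. Zbtb20, a zinc finger repressor of transcription, fell by 1.03 in Intact-named arrays (adjusted p = 0.00836 from limma), and its difference in OVX rats was −0.23. The brightest probe set of Zbtb20 gave −0.36 in Intact-named arrays. Trio, a guanine nucleotide exchange factor, fell by 0.71 (adjusted p = 0.0104 from limma), and gave −0.08 in OVX rats. The brighter probe set of Trio did not fall, with 0.01 in Intact-named arrays. Pml, the scaffold of PML nuclear bodies, rose by 0.62 (adjusted p = 0.034 from limma), and gave 0.15 in OVX rats. None of these 3 passed the test of the interaction itself, at −0.80, −0.63 and 0.48 with adjusted p of 0.669, 0.669 and 0.816 from limma.

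At an unadjusted p under 0.05 there were 1276 probe sets with an interaction, 505 positive and 771 negative, and the sign went with annotation. Among genes, 289 were positive (2.29%) and 94 negative (0.746%). Among probe sets without a symbol, 121 were positive (1.69%) and 555 negative (7.74%). Over all 12605 genes 60.1% of the interactions were positive, with a median of 0.0353. The share of positive values among all probe sets at that level was 39.6% as deposited, and 51.6% (712 against 667) after each array's median was subtracted, so the balance of signs depends on the scaling. It was 58.2% without Intact-3 and Intact-5 (1816 against 1302). Among genes it was 75.5% as deposited and 84.1% with medians subtracted (412 against 78), with 82.1% without these 2 arrays (1194 against 260). Within each array, the median of probe sets with a symbol exceeded that of probe sets without one by 1.11 to 1.18 in paced and 1.12 to 1.23 in chamber-exposed OVX rats. The same measure was 1.20 to 1.26 in paced and 1.06 to 1.14 in chamber-exposed Intact-named arrays, which did not overlap. Its part in the sign of the interactions was not tested.

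**Figure D2:**
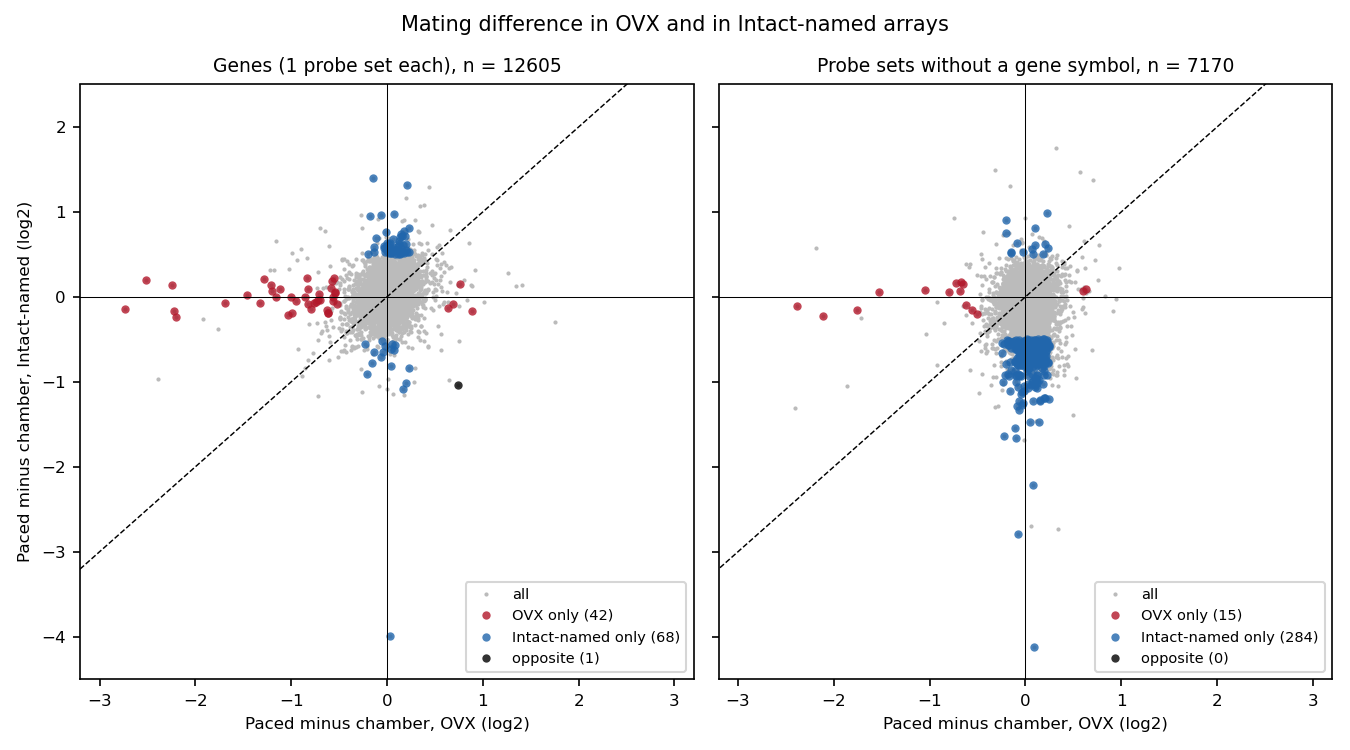
Each point is a gene (left, 12605) or a probe set without a gene symbol (right, 7170), with its mating difference in OVX rats on the x axis and in Intact-named arrays on the y axis, both in log2 units, and a dashed line where both are equal. Colored points follow the patterns of size and no overlap: on the left 42 genes lie along the x axis, mostly to the left of 0, and on the right 284 probe sets lie along the y axis, 270 of them below 0.

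Genes were sorted by the shape of the contrast, as a description without a test. A mating difference counted as opposite when it was at least 0.5 in size in both gland groups with opposite signs. It counted as lost after ovariectomy when it was at least 0.5 in Intact-named arrays and under 0.25 in OVX arrays, and as present only after ovariectomy in the reverse case. Paced and chamber-exposed arrays also had to be free of overlap wherever the difference was. By these limits 1 gene was opposite (0.00793%), 68 were lost after ovariectomy (0.539%) and 42 were present only after ovariectomy (0.333%). The 68 were mostly higher with paced mating in Intact-named arrays (51 positive, 17 negative), and the 42 were mostly lower with paced mating in OVX rats (38 positive and 4 negative interactions). Xist is 1 of the 17 negative genes, at −4.02 over all arrays and −0.79 without Intact-3 and Intact-5. Without these 2 arrays 39 genes were opposite, 797 lost and 16 present only after ovariectomy, where a single paced Intact-named array is compared and overlap is less likely by construction. With 1 array left out at a time, lost genes numbered 55 to 252, with the most without Intact-5, and genes present only after ovariectomy 17 to 97, with the fewest without Intact-1.

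The 1 opposite gene was Vof16. It gave 7.30, 6.92 and 6.78 in paced OVX rats and 5.61, 6.58 and 6.60 in chamber-exposed OVX rats. In Intact-named arrays it gave 5.38, 5.26 and 5.63 with paced mating and 7.38, 6.12 and 5.90 with chamber exposure. Paced arrays were thus all above the chamber-exposed ones in OVX rats and all below them in the Intact-named set. The mating difference was 0.74 in OVX (1.67-fold higher) and −1.04 in Intact-named arrays (2.06-fold lower). The interaction of −1.78 (standard error 0.508) did not pass over all probe sets (adjusted p = 0.816 from limma), and its exact permutation p of 0.005, the smallest that the design can give, follows from the absence of overlap by which the gene was chosen. It was −1.82 without Intact-3 and Intact-5. The other probe set of Vof16 gave −0.26.

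In the other 9 genes with opposite differences, paced and chamber-exposed arrays overlapped in at least 1 gland group. Stra6, the cell surface receptor that takes up retinol from its plasma carrier, gave 1.51 at its brightest probe set, from −0.70 in OVX and 0.81 in Intact-named arrays. A second Stra6 probe set, 1390525_a_at, gave 5.01, 4.71 and 5.29 in paced OVX rats against 5.94, 5.93 and 6.10 in chamber-exposed ones, with no overlap. Its Intact-named values of 6.60, 6.04 and 5.58 with paced mating and 5.66, 4.63 and 4.97 with chamber exposure overlapped, and the interaction was 1.97 (adjusted p = 0.699 from limma). The other 3 probe sets of Stra6 were positive as well, at 0.11 to 0.79. Th and Slc6a3, the dopamine transporter, had opposite differences of −0.61 and −1.16 in OVX and 0.60 and 0.66 in Intact-named arrays. These follow single arrays, since Slc6a3 was 9.03 on OVX-4 and 7.51 on Intact-1, and at most 6.01 on the other 10. Trh, thyrotropin-releasing hormone, and Slc17a6, a vesicular glutamate transporter, gave 1.42 and −1.28. Col3a1, a fibrillar collagen chain, gave −1.62. Abca4, Bhmt2 and Mab21l1 gave 1.51, 1.45 and −1.19. At their brightest probe sets the adjusted p of these 9 genes was at least 0.816 from limma.

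Among genes whose mating difference was lost after ovariectomy, the 51 positive interactions ran from 0.30 to 1.54 with a median of 0.53. C3, the central protein of the complement cascade, led them by p. It gave 7.03, 6.63 and 6.84 in paced and 7.10, 6.78 and 7.15 in chamber-exposed OVX rats, which overlapped. In Intact-named arrays C3 was 7.58, 7.93 and 7.46 with paced mating, and 6.92, 6.40 and 6.78 with chamber exposure. All 3 paced Intact-named arrays were above the 9 others. The interaction was 1.13 (standard error 0.241, adjusted p = 0.816 from limma, exact permutation p = 0.020), and 1.05 without Intact-3 and Intact-5. C3 was chosen for an absence of overlap, which also lowers the permutation p.

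Slc9a3, a sodium-proton exchanger of epithelia, had the highest positive value of the 51. Its signal was 6.13, 5.84 and 5.77 in paced and 6.10, 6.20 and 5.88 in chamber-exposed OVX rats, and 6.30, 7.59 and 6.71 in paced and 5.62, 5.34 and 5.45 in chamber-exposed Intact-named arrays. Paced Intact-named arrays were above and chamber-exposed ones below all OVX arrays. The interaction was 1.54 (standard error 0.362, limma adjusted p = 0.816), against 0.97 without Intact-3 and Intact-5, of which Intact-3 had the highest signal. Ctsz, the lysosomal protease cathepsin Z, had an interaction of 0.60, with 8.45, 8.67 and 8.28 in paced and 7.81, 7.78 and 7.93 in chamber-exposed Intact-named arrays and 8.15 to 8.28 in all OVX rats. Birc7, an inhibitor of apoptosis in human cells, gave 0.60 as well, from −0.03 in OVX and 0.58 in Intact-named arrays. Nr1d1, the circadian repressor REV-ERB alpha, gave 0.38, and its chamber-exposed Intact-named arrays (7.96 to 8.21) were the lowest of the 12.

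The 17 negative interactions of lost differences ran from −4.02 (Xist) to −0.32, with a median of −0.65. Fam185a gave 5.69, 5.57 and 5.60 in paced and 5.51, 5.66 and 5.18 in chamber-exposed OVX rats, and 5.36, 5.07 and 5.38 in paced and 6.47, 6.78 and 5.80 in chamber-exposed Intact-named arrays. Here the chamber-exposed Intact-named arrays were the highest of the 12. Its interaction was −1.25 (standard error 0.298, adjusted p = 0.816 from limma). Cdh22, a cadherin of brain, gave 11.73, 11.32 and 10.77 in paced and 11.25, 11.03 and 10.94 in chamber-exposed OVX rats, and 10.95, 10.63 and 11.13 in paced and 11.93, 12.11 and 11.71 in chamber-exposed Intact-named arrays. The chamber-exposed Intact-named arrays were again high, with OVX-1 reaching their range. The Cdh22 interaction was −1.21, and its other probe set gave −0.13. Adam1a, an ADAM family gene, and Klhl3, a substrate adaptor of a cullin ubiquitin ligase, gave −0.69 and −0.55. Without Intact-3 and Intact-5 these 4 genes gave −1.17, −1.16, −0.63 and −0.72.

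**Figure D3:**
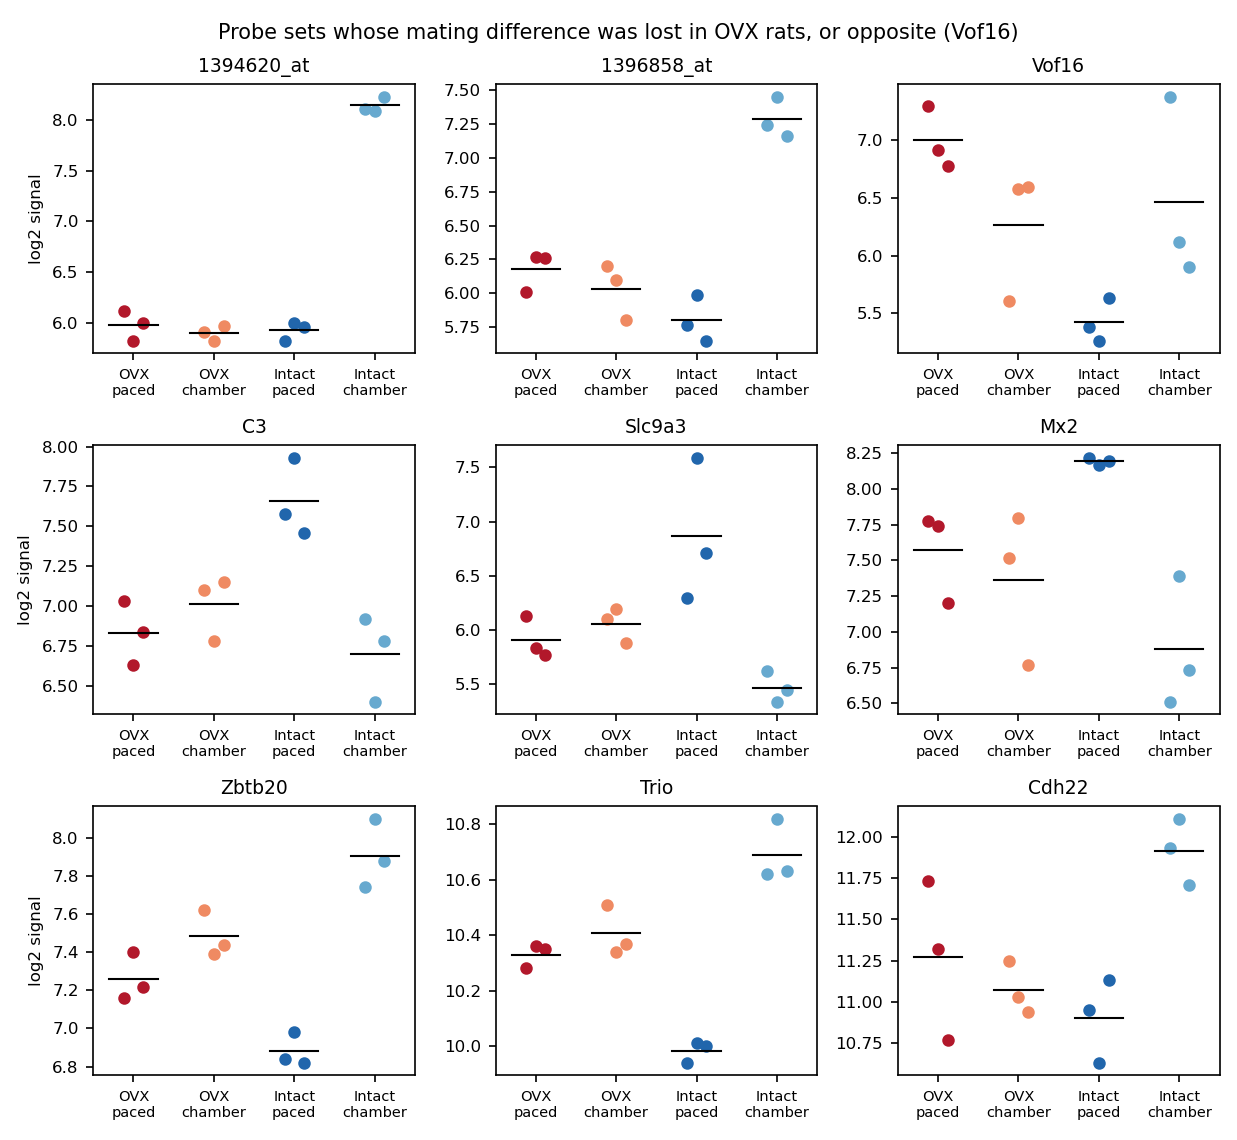
Each panel is 1 probe set, each point 1 array on a log2 signal axis, and each bar the mean of 3 arrays, in the order OVX paced, OVX chamber-exposed, Intact-named paced and Intact-named chamber-exposed. The 2 probe sets that passed the test (first 2 panels) are high only on the 3 chamber-exposed Intact-named arrays, Vof16 changes order between gland groups, C3, Slc9a3 and Mx2 are highest with paced mating in the Intact-named set, and Zbtb20, Trio and Cdh22 are lowest there on average.

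The probe sets of Zbtb20 and Trio that were called for mating in Intact-named arrays also met the limits of a lost difference. Neither is the brightest of its gene, so neither gene is among the 68. Zbtb20 gave 7.16, 7.40 and 7.22 in paced and 7.62, 7.39 and 7.44 in chamber-exposed OVX rats, and 6.84, 6.98 and 6.82 in paced and 7.74, 8.10 and 7.88 in chamber-exposed Intact-named arrays. The gap of the Intact-named set lies on both sides of the OVX arrays. The other 5 probe sets of Zbtb20 were negative too, at −0.33 to −0.10. For Trio, paced Intact-named arrays (9.94 to 10.01) lay below, and chamber-exposed ones (10.62 to 10.82) above, the OVX arrays at 10.28 to 10.51. The other probe set of Trio gave an interaction of 0.02.

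A few genes had a small p without meeting the size limits. They were named after their p-values were seen. Aadat, an aminotransferase of kynurenine and aminoadipate, had the smallest p of the genes and gave 6.82, 7.19 and 7.04 in paced and 7.34, 7.10 and 7.44 in chamber-exposed OVX rats. In Intact-named arrays it gave 7.54, 8.10 and 7.84 against 6.70, 6.98 and 6.91. The difference was −0.28 in OVX and 0.96 in Intact-named arrays, an interaction of 1.24 (standard error 0.215, adjusted p = 0.669 from limma), and 0.95 without Intact-3 and Intact-5. Pop5, a subunit of ribonuclease P, was free of overlap in both gland groups with opposite signs, at −0.39 in OVX and 0.38 in Intact-named arrays. Its paced arrays were 5.54, 5.57 and 5.58 against 6.02, 5.82 and 6.0 in OVX rats, and 6.28, 6.27 and 5.96 against 5.84, 5.89 and 5.62 in Intact-named arrays. The interaction was 0.77, with an adjusted p of 0.669 from limma. Its exact permutation p of 0.005, the smallest possible, follows from the absence of overlap with opposite signs. The other probe set of Pop5, which is brighter, gave 0.13. Srebf1, which drives genes of fatty acid synthesis, gave 0.42, with 9.18 to 9.28 in chamber-exposed Intact-named arrays and at least 9.43 on the 9 others. Mipep, a mitochondrial peptidase, gave 0.46.

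Genes with a mating difference only after ovariectomy were led by Prdm16, a zinc finger regulator of transcription. It gave 6.83, 6.76 and 6.81 in paced and 7.41, 7.33 and 7.37 in chamber-exposed OVX rats, and 7.71, 6.98 and 6.87 in paced and 7.03, 6.91 and 7.03 in chamber-exposed Intact-named arrays. Within OVX rats the arrays of each label lay within 0.08 of each other. The interaction was 0.76 (standard error 0.243, limma adjusted p = 0.817). Its other probe set gave 0.90. Without Intact-3 and Intact-5 it passed the test at 1.29 (adjusted p = 0.0125 from limma), where Intact-1, at 7.71, is the only paced Intact-named array. Synpo2l, an actin-associated protein of muscle, gave 0.68, and 1.19 without these 2 arrays. Both Prdm16 and Synpo2l were highest on Intact-1, OVX-2, OVX-4 and OVX-6. These arrays also had the highest medians of the choroid plexus genes described below, at 8.39 to 9.17. Whether the signal of Prdm16 and Synpo2l comes from choroid plexus was not tested. Sytl3, an effector of Rab27 in secretion, gave 0.44.

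The 4 negative genes of this shape were higher with paced mating in OVX rats. Grm4, a metabotropic glutamate receptor, gave 9.09, 8.41 and 8.78 in paced and 8.31, 8.34 and 7.56 in chamber-exposed OVX rats, and 7.54 to 8.02 in all Intact-named arrays. Its interaction was −0.77 and −0.48 without Intact-3 and Intact-5, and OVX-1, the array high in cerebellar genes, had its highest signal. Lin7a, a synaptic scaffold protein, gave −0.77. Pf4, a platelet chemokine, gave −0.61. Cnmd, an inhibitor of vessel growth in cartilage, gave −1.05 with a standard error of 1.04, and turned to 0.83 without Intact-3 and Intact-5.

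The list of choroid plexus genes, the epithelium that makes cerebrospinal fluid, had the highest median interaction of 38 gene lists. Of 15 members 14 were positive, beside 60.1% of all genes, with a median of 1.26 against 0.0353 over all genes. The median mating difference was −1.33 in OVX and −0.08 in Intact-named arrays. None passed the test of the interaction, and 2 (Kcne2 and Aqp1) had an unadjusted p under 0.05 from limma, beside 3.04% of all genes. Of the 42 genes with a difference only after ovariectomy, 9 are from this list, and all 9 were lower with paced mating in OVX rats. They are Kcne2, Kl, Folr1, Cldn2, Sostdc1, F5, Mfrp, Steap1 and Enpp2.

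Kcne2, a potassium channel subunit, gave 5.62, 5.26 and 5.70 in paced and 6.14, 6.17 and 6.38 in chamber-exposed OVX rats, and 4.97 to 5.57 on all Intact-named arrays. The 3 chamber-exposed OVX arrays were above the 9 others. The interaction was 0.67 (standard error 0.224, adjusted p = 0.855 from limma). Sostdc1, a secreted antagonist of BMP signalling, gave 9.43, 5.95 and 9.13 in paced and 10.85, 10.39 and 10.81 in chamber-exposed OVX rats, and 11.33, 6.98 and 7.61 in paced and 10.38, 6.36 and 8.60 in chamber-exposed Intact-named arrays. Here the Intact-named arrays spread over several units within each label. Its interaction was 2.71 with a standard error of 1.78. Cldn2, a tight junction protein of leaky epithelia, gave 2.38, and F5, coagulation factor V, gave 2.60. Ttr, the thyroxine carrier transthyretin and the brightest choroid plexus gene, gave 13.98, 10.22 and 13.82 in paced and 14.45, 14.34 and 14.53 in chamber-exposed OVX rats. In Intact-named arrays Ttr ran from 11.02 to 14.51 with paced mating and from 10.89 to 14.50 with chamber exposure. Prlr, the prolactin receptor, gave −2.39 in OVX and −0.96 in Intact-named arrays.

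The level of the list varied by array, but not every member followed it. The list median was 7.65, 5.95 and 7.73 in paced and 8.95, 8.39 and 8.98 in chamber-exposed OVX rats, and 9.17, 6.05 and 6.32 in paced and 8.30, 6.36 and 7.49 in chamber-exposed Intact-named arrays. OVX-3 was therefore far below the other OVX arrays, and Intact-1 was the highest of the 12. Kcne2 and Aqp1 did not follow the list median on Intact-1. At their brightest probe sets they gave 5.25 and 7.46 there, below the chamber-exposed OVX arrays at 6.14 to 6.38 and 7.77 to 7.85. The median interaction of the list was 0.46 without Intact-1, where the paced Intact-named arrays are Intact-3 and Intact-5, and 2.71 without Intact-3 and Intact-5. How much choroid plexus each dissection held was not measured. Genes of ependyma, the ciliated lining of the ventricles, gave 5 of 6 positive and a median of 0.51, which was 0.17 without Intact-1 and 1.17 without Intact-3 and Intact-5.

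**Figure D4:**
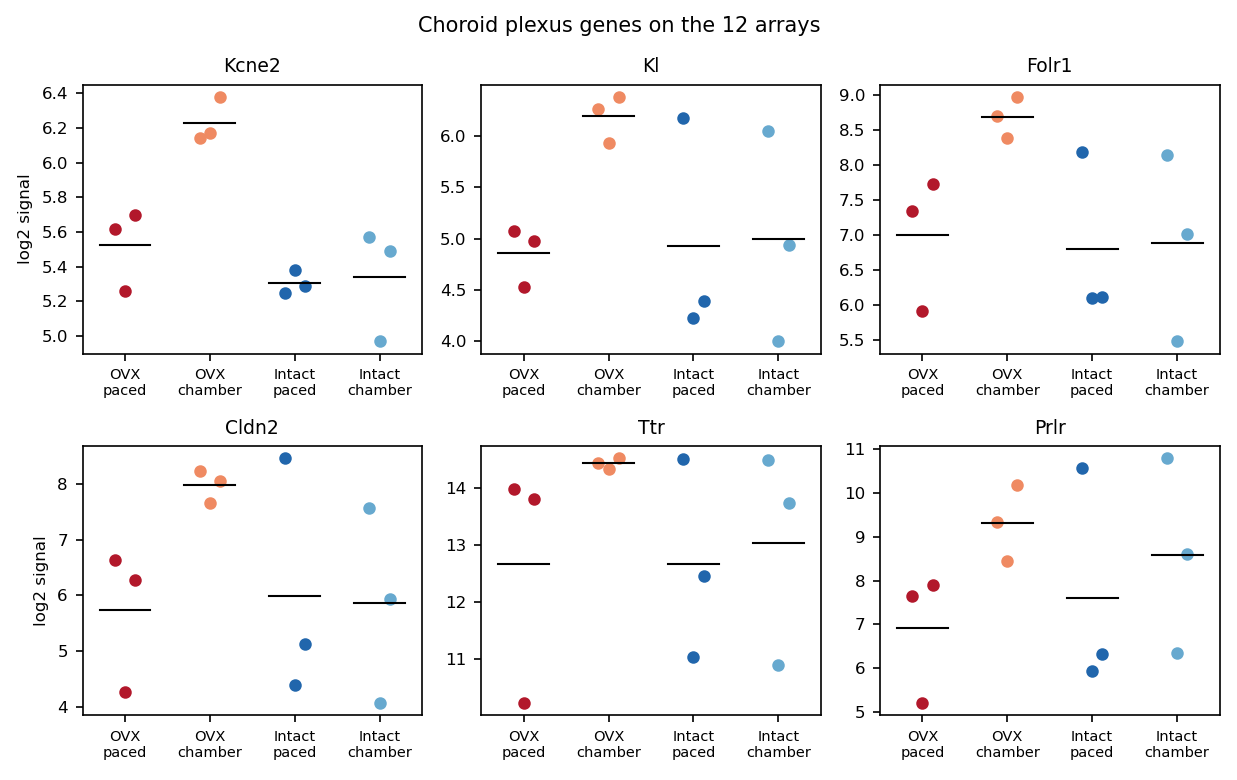
Each panel is a gene of the choroid plexus list, with 1 point an array, log2 signal on the y axis and a bar at the mean of 3 arrays, in the order OVX paced, OVX chamber-exposed, Intact-named paced and Intact-named chamber-exposed. The chamber-exposed OVX arrays lie close together and high, and the paced Intact-named arrays spread over more than 4 units in Cldn2 and Prlr.

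Interferon-induced and antigen presentation genes formed another list. Of 25 members, 21 were positive, beside 60.1% of all genes, with 20 after quantile normalization and 22 after subtraction of array medians, and the list median was 0.16 against 0.0353 over all genes. None passed the test, and 3 (Irf1, Mx2 and Psmb8) had an unadjusted p under 0.05 from limma, beside 3.04% of all genes. Mx2, an interferon-induced GTPase, gave 7.78, 7.74 and 7.20 in paced and 7.52, 7.80 and 6.77 in chamber-exposed OVX rats, and 8.22, 8.17 and 8.20 in paced and 6.51, 7.39 and 6.73 in chamber-exposed Intact-named arrays. Its paced Intact-named arrays were the highest of the 12, and the interaction was 1.11 (standard error 0.385, adjusted p = 0.861 from limma). The other probe set of Mx2 gave 0.10. Psmb8 and Psmb9, subunits of the immunoproteasome, gave 0.53 and 0.47, both lost after ovariectomy by the limits above. Irf1, a transcription factor of the interferon response, gave 0.33. The list median was 0.37 without Intact-3 and Intact-5 and 0.06 without Intact-1.

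Of 14 microglial genes 8 were positive, beside 60.1% of all genes, with a median of 0.08. Trem2 and Csf1r, receptors of microglia, had unadjusted p under 0.05 from limma, beside 3.04% of all genes. They gave 0.31 (0.17 without Intact-3 and Intact-5) and 0.26, and the second probe set of Trem2 gave 0.41. Chaperones of the cytosol and endoplasmic reticulum were positive in 20 of 22, beside 60.1% of all genes. Their median was 0.11 (0.29 without Intact-3 and Intact-5), and none had an unadjusted p under 0.05 from limma. Hyou1, a chaperone of the endoplasmic reticulum, was lost after ovariectomy at 0.49.

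Cerebellar neuron genes were negative in 9 of 9, with a median of −0.74. This rested on 1 array: Pcp2, a Purkinje cell gene, was 10.35 on OVX-1 and at most 6.02 on the other 11, and the list median was −0.05 without OVX-1. Meningeal and matrix genes were negative in 17 of 19 with a median of −0.27, and thalamic neuron genes in 10 of 13 with −0.25. With 1 array left out the meningeal median ran from −0.60 (without OVX-5) to −0.09 (without Intact-5), and the thalamic median from −0.57 (without OVX-4) to 0.09 (without OVX-6). They were −0.08 and −0.11 without Intact-3 and Intact-5. Oligodendrocyte genes were negative in 11 of 14 over all arrays, and positive in 13 of 14 without Intact-3 and Intact-5. Ugt8, an enzyme of myelin galactolipids, gave −1.20, with 7.89, 6.10 and 7.33 in paced Intact-named arrays, where Intact-3 is the low one, and −0.42 without Intact-3 and Intact-5.

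Genes of the pathways that the study set out to examine are given next. Over all genes, 3.04% had an unadjusted p under 0.05 from limma. The counts of lists this short cannot be told apart from that share. Of 17 genes of neurosteroid synthesis, 0 had an unadjusted p under 0.05 from limma, and 14 were positive, beside 60.1% of all genes. Their median was 0.10, and 0.20 without Intact-3 and Intact-5. Cyp7b1, a steroid hydroxylase, and Tspo, the outer mitochondrial membrane protein that binds cholesterol, gave 0.46 and 0.30. Of 19 steroid receptors and cofactors 1 had an unadjusted p under 0.05. This was Paqr5, a membrane progestin receptor, which gave 6.59, 6.24 and 6.56 in paced and 6.93, 6.83 and 6.81 in chamber-exposed OVX rats. In Intact-named arrays Paqr5 was 7.27, 6.84 and 6.19 with paced mating and 6.66, 6.29 and 6.47 with chamber exposure. Paced and chamber-exposed arrays did not overlap in OVX rats and overlapped in the Intact-named set, and the interaction was 0.69 (adjusted p = 0.982 from limma), and 1.19 without Intact-3 and Intact-5 (adjusted p = 0.12 from limma).

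The median interaction of 12 GABA-A receptor subunits was −0.05 (−0.18 without Intact-3 and Intact-5) and that of 24 glutamate receptor subunits 0.02, where Grm4 alone had an unadjusted p under 0.05 from limma. Immediate early genes, which neurons induce within minutes of activity, had 0 of 36 at that level, beside 3.04% of all genes. Their median was 0.01, with −0.12 without these 2 arrays. Fos, the best known of them, gave 11.21, 10.75 and 10.87 in paced and 11.11, 10.24 and 9.62 in chamber-exposed OVX rats, and 11.09, 11.04 and 11.51 in paced and 11.77, 10.56 and 11.15 in chamber-exposed Intact-named arrays. The groups overlapped on both sides, and the interaction was −0.57 (standard error 0.506). Of 21 glucocorticoid-responsive genes 16 were negative, but 18 were positive without Intact-3 and Intact-5. Lcn2, the iron-carrier binding protein lipocalin 2, gave 0.91 (1.44 without Intact-3 and Intact-5). It was the only one with an unadjusted p under 0.05 from limma, beside 3.04% of all genes. Like the choroid plexus list median, Lcn2 was highest on Intact-1, OVX-2, OVX-4 and OVX-6.

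Hypothalamic and opioid or oxytocin genes rested on Intact-1. The median of 11 hypothalamic genes was 0.24, with −0.02 without Intact-1 and 1.08 without Intact-3 and Intact-5. Avp, vasopressin, was 9.84 on Intact-1 and at most 6.93 on the other 11 arrays, and Oxt, oxytocin, was 8.14 on Intact-1. The Avp interaction was 1.01 over all arrays, and 3.27 without Intact-3 and Intact-5, where it passed the test (adjusted p = 0.00197 from limma) on this single paced Intact-named array. Opioid and oxytocin system genes were positive in 12 of 13, beside 60.1% of all genes, with a median of 0.25 that was 0.07 without Intact-1.

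**Figure D5:**
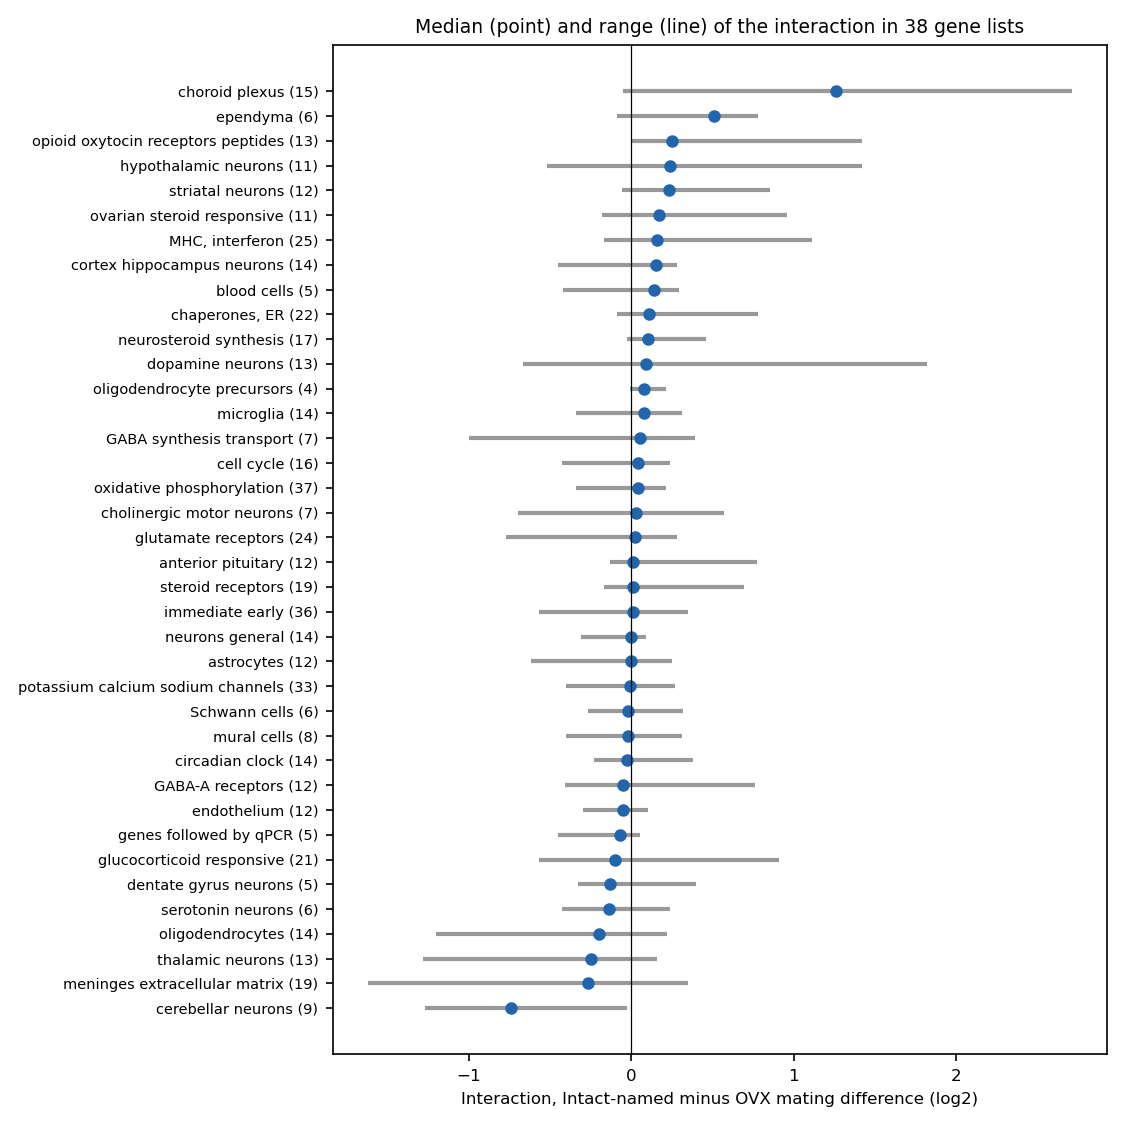
Each row is a gene list with its number of measured genes in brackets, the point is the median interaction (Intact-named mating difference minus OVX mating difference, in log2 units) and the line runs from the lowest to the highest member. Choroid plexus genes have the highest median, 1.26, and cerebellar neuron genes the lowest, −0.74, while most lists lie close to 0.

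The genes that the study followed by qPCR showed little on these arrays. Gh1, growth hormone, gave an interaction of 0.01, from −0.04 in OVX and −0.03 in Intact-named arrays. Lhb and Fshb, beta subunits of the gonadotropins, gave 0.05 and −0.07, Gnrhr, the receptor of gonadotropin-releasing hormone, −0.12, and Grifin, a galectin-related protein of the lens, −0.45. Each of these 5 values changed sign or reached 0 in some alternative setting. Without Intact-3 and Intact-5, Gh1 gave −0.09, Lhb 0.22, Fshb −0.22 and Gnrhr −0.24. The standard errors were 0.129 to 0.588, and the widest 95% interval, that of Grifin, ran from −1.74 to 0.84. Klk1b3, S100g, Cga, Tshb and Prl did not pass the filter on low signals, with 3.24 to 5.01 on the 12 arrays.

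The other 12 arrays of the series allow a similar contrast, the mating difference in number-named intact arrays minus that in ovariectomized and adrenalectomized rats, which shares no array with the first. Of the 383 genes with an unadjusted p under 0.05 in the first contrast, 199 had the same sign in the second (52.0%), beside 51.1% of all genes. Of 17 genes named for their shape, 10 had the same sign. Probe set 1394620_at gave −0.84 (standard error 0.383) there and 1396858_at −0.01 (standard error 0.234). For 1394620_at the mating difference there was 0.91 in ovariectomized and adrenalectomized rats and 0.06 in number-named intact arrays, so the fall of the Intact-named arrays was not seen in the other intact arrays. For 1396858_at these differences were 0.15 and 0.14. Without 1 of the paced ovariectomized and adrenalectomized arrays (replicate 3, left out after seeing the data) 1394620_at gave −1.27 (adjusted p = 0.0275 from limma) and 1396858_at −0.21. That fit made 19 calls, among them Fshb at −2.19, against 0 calls with this array included. In it 56.1% of the 383 genes had the same sign, and the share over all genes was not taken. The adrenals were also removed in the ovariectomized rats of the second contrast, so the contrasts differ in more than the arrays.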

How the data were processed

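Signals were taken on the log2 scale as deposited by the authors. The submitters' processing notes name RMA and Expression Console 1.4, and the paper's methods name GCRMA. The lowest signal was 2.30 to 2.39 on these 12 arrays, against 3.38 to 3.65 on the others, which places them in 1 run. Of 31099 probe sets 57 controls were left out, and probe sets at or above the array's 20th percentile in at least 3 of 12 arrays were kept. Symbols come from the platform annotation, 17794 of them updated. R 4.3.3 and limma 3.58.1 fitted 4 means with 8 residual degrees of freedom. Mating labels were also permuted within gland groups (400 arrangements, exact, two-sided), which tests the absence of a mating difference in both gland groups. Named were the study's qPCR genes, the 4 genes of smallest p for each pattern and sign, and up to 2 members of each list with an unadjusted p under 0.05. The 8 genes or probe sets of smallest p were added after the values were seen. So were the probe sets with a symbol called for mating, Xist, Eif2s3y, Avp, the genes with opposite differences and further list members given as examples. The members and lists were chosen with earlier results of these data known. Alternatives covered filter, normalization, variance model, covariates, the array number as a block and arrays left out. The number of arrays limits the precision.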

Additional observations from a re-analysis of the deposited data

Results flagged for a closer look

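The difference of the mating differences itself passed the test at 2 probe sets. For 1394620_at the interaction was −2.29 and for 1396858_at −1.62, in each case with a lower signal in paced than in chamber-exposed Intact-named arrays and OVX mating differences of 0.07 and 0.14. Vof16, at −1.78, is listed because all paced OVX arrays were above and all paced Intact-named arrays below their chamber-exposed counterparts, and its test did not pass the threshold over all probe sets (adjusted p = 0.816 from limma).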

How the results depend on the processing

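The interaction was called at 2 probe sets. The count was 1 with a plain linear model without moderation, with each of 4 marker lists as a covariate, and with the array number as a replicate block, where 1396858_at had an adjusted p of 0.115 from limma. The deviations of same-numbered Intact-named and OVX arrays correlated at 0.0203 to 0.32. The paper calls chamber-exposed rats yoked controls, but the labels do not say which rat was yoked to which. A pairing of paced and chamber-exposed arrays within each set was therefore not tested. The count of calls was 13 with all 24 arrays in the fit and 7 without OVX-1, OVX-4 and Intact-1. These arrays, and Intact-3 and Intact-5 left out together, were chosen after seeing the data. Leaving out 1 array at a time gave 1 to 9, with 9 without Intact-1, where the added calls were the 4 Xist probe sets, Pnlip and 2 without a symbol. It gave 3 without OVX-1, 2 without Intact-3 and 1 without any other array. The count stayed at 2 with no filter, the other filters, quantile normalization, array medians subtracted, trend and robust options, array weights and the beta-actin covariate. Probe set 1394620_at was called in each of 29 alternatives and 1396858_at in 12. Genes lost after ovariectomy numbered 68, with 37 at a 50th percentile filter, 130 without OVX-1, OVX-4 and Intact-1, 797 without Intact-3 and Intact-5, and 55 to 252 without 1 array (highest without Intact-5). Genes present only after ovariectomy numbered 42, with 69, 16 and 17 to 97 (lowest without Intact-1). Opposite genes numbered 1, with 0 at the 50th percentile filter, 4, 39 and 0 to 5. Fewer arrays make no overlap more likely by construction. Cnmd turned to 0.83 and Gh1 to −0.09 without Intact-3 and Intact-5. Genes followed by qPCR also changed sign elsewhere: Gnrhr to 0.13 with array weights and 0.08 with the choroid plexus covariate, Fshb to 0.07 and Gh1 to 0 with the dopamine neuron covariate, Fshb to 0.02 and Lhb to −0.05 with the choroid plexus covariate, and Lhb to −0.04 without OVX-1, OVX-4 and Intact-1. With 1 array left out Gh1 ran from −0.06 to 0.1, Lhb from −0.04 to 0.1, Fshb from −0.17 to 0, Gnrhr from −0.37 to 0.17 and Grifin from −0.87 to 0. No other named gene changed sign. The second contrast of 1394620_at passed the threshold without 1 array, at −1.27, in a fit with 19 calls against 0 with that array.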
